A study of Sus scrofa with 30 samples.

Results

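The inner, mesenchymal tissue of normal teats was compared between pigs that carried inverted teats elsewhere on the body and pigs that carried none. The comparison rests on 10 of the 30 arrays of the series: the normal teat of 5 affected animals against the normal teat of 5 non-affected animals, chosen by their labelled tissue, teat type and status and not by any measured value. Affected animals 964, 1037 and 1059 and non-affected animals 950, 1040 and 1058 were Large White x German Landrace crosses. Affected animal 963 and non-affected animal 957 were German Landrace. Affected animal 1103 and non-affected animal 1109 were Pietrain x (Large White x German Landrace), so that each breed had as many affected as non-affected animals. Teats were taken at slaughter, at a mean end weight of 110 kg, and classed as normal or inverted by eye and touch. Each animal gave 1 array of this tissue from 500 ng of RNA. The labels do not say whether animals were related, and p-values measure the spread between these 10 animals only. The same 10 teats were also measured in their epithelial tissue, and the 5 affected animals gave an inverted teat as well. Both sets are used below beside the main comparison, and the epithelial set also in a test of the difference between tissues.

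An inverted teat does not project from the udder and cannot be suckled. Teats form where the embryonic ectoderm thickens over a specialised mesenchyme, and the layers exchange signals. In mice, parathyroid hormone-like hormone (PTHLH) from the epithelial bud acts on its receptor PTH1R in the mesenchyme, and BMP and Wnt signals with the homeobox factor MSX1 follow. In the grown teat the mesenchymal part holds fibroblasts and their collagen, smooth muscle, vessels, fat and immune cells, and striated muscle lies close by. A normal teat of an affected animal belongs to an animal with the disorder but lacks the malformation itself. Roles of genes given below are known mainly from human and mouse work.

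Expression was read on Affymetrix Porcine Genome arrays, on which each probe set reports a transcript, or in some cases several, as a value on a log2 scale. A difference of 1 is 2-fold and a difference of 2 is 4-fold. Levels of different probe sets are not comparable with each other. Of 24123 probe sets, 17066 lay above the 30th percentile of their array on at least 5 of the 10 arrays and were tested. Among these were 8264 that carry exactly 1 gene symbol, which cover 5952 genes through the brightest probe set of each gene. The 10 arrays had medians of 5.71 to 6.01. Correlated with the other 9, an array had a median r of 0.849 (non-affected animal 950) to 0.921 (non-affected animal 1109). With 5 arrays a group, precision is limited by their number. Where values of single animals are listed, affected animals follow the order 963, 964, 1037, 1059 and 1103, and non-affected animals the order 950, 957, 1040, 1058 and 1109.

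The dissected pieces carried the markers of the labelled tissue in every animal. The fibroblast collagen gene COL1A2 measured 10.27 to 11.99 in affected and 10.45 to 11.22 in non-affected animals. Decorin (DCN), a collagen-binding proteoglycan, measured 12.40 to 13.18 in affected and 12.55 to 12.85 in non-affected animals. These genes do not set the tissue apart, since the epithelial pieces of the same teats had COL1A2 at 11.19 to 11.72 in affected and 10.62 to 12.57 in non-affected animals. The smooth muscle actin ACTA2 lay at 11.06 to 12.72 in affected and 11.26 to 12.54 in non-affected animals. It did not set the tissue apart either, with 11.97 to 12.50 and 12.26 to 12.65 in their epithelial pieces. The fat hormone adiponectin (ADIPOQ) lay at 10.62 to 12.52 in affected and 11.80 to 13.01 in non-affected animals. In the epithelial pieces ADIPOQ lay at 7.91 to 11.29 in affected and 8.14 to 11.03 in non-affected animals.

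Markers of other cells lay at unequal levels between animals. The fast muscle troponin TNNT3 had 12.87, 11.65, 10.38, 13.56 and 10.47 in affected animals, against 12.26, 10.24, 0.00, 13.48 and 11.62 in non-affected animals. The gene was listed at 0 on the array of non-affected animal 1040, and the other 9 arrays overlapped. The mean of the luminal keratins KRT8, KRT18 and KRT19, which mark gland and duct epithelium, was 10.61, 10.52, 4.46, 5.79 and 2.38 in affected animals, against 9.15, 10.65, 7.28, 2.63 and 6.64 in non-affected animals. The milk protein gene CSN2 was high in the same 4 animals as these keratins, at 14.76 and 16.14 in affected animals 963 and 964 and at 15.47 and 13.83 in non-affected animals 950 and 957. It lay between 4.0 and 5.55 in the other affected and between 4.79 and 6.39 in the other non-affected animals. Each group held 2 animals in which keratins and CSN2 were both high, and their part in the results was not tested beyond fits with these levels as covariates. In such bulk samples, fewer cells of a type and less RNA per cell cannot be told apart.

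**Figure D1:**
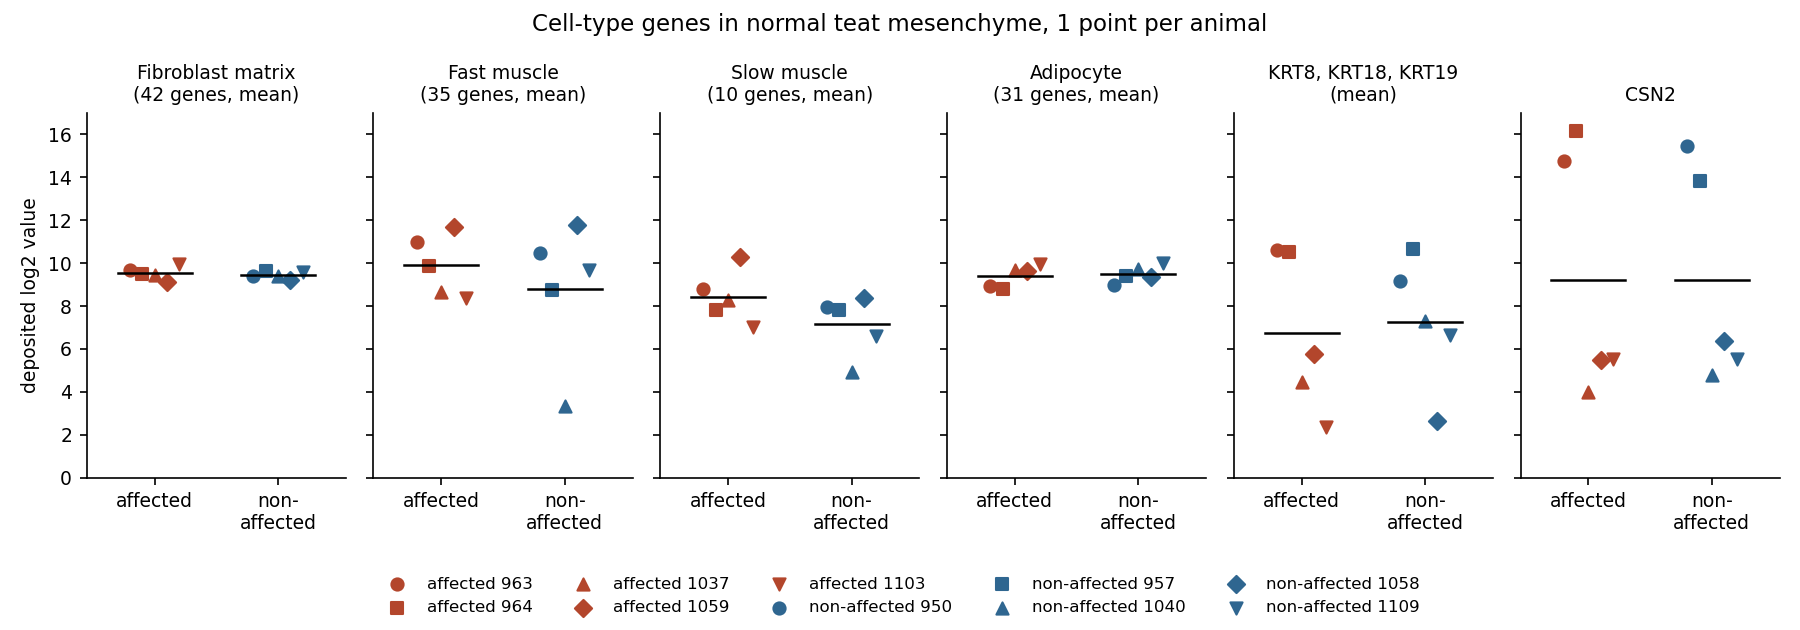
Deposited log2 values of cell-type genes in the mesenchymal tissue of normal teats, 1 point per animal, with affected animals left of non-affected animals and a line at each group mean; the first 4 panels are means over the tested genes of a list. Fibroblast and adipocyte genes lie close together in all animals, the fast muscle mean of non-affected animal 1040 stands at 3.34, and keratins and CSN2 are high in 2 animals of each group.

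The question was whether the normal teat mesenchyme of affected animals differs in expression from that of non-affected animals. No probe set passed: 0 of 17066 (0.0%) had an adjusted p under 0.05 in limma with Benjamini-Hochberg adjustment, and the smallest adjusted p was 0.99998. At an unadjusted p under 0.05, limma marked 113 probe sets (0.662%), where that threshold alone would mark 5% of probe sets with no difference. Of these, 46 were higher (0.27%) and 67 lower (0.393%) in affected animals. The count lies far under the 5% mark, and the shortfall reaches up to an unadjusted p of about 0.3. A per-probe-set analysis of variance, the method the design text names, marked 191 at an unadjusted p under 0.05 and 0 after adjustment.

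**Figure D2:**
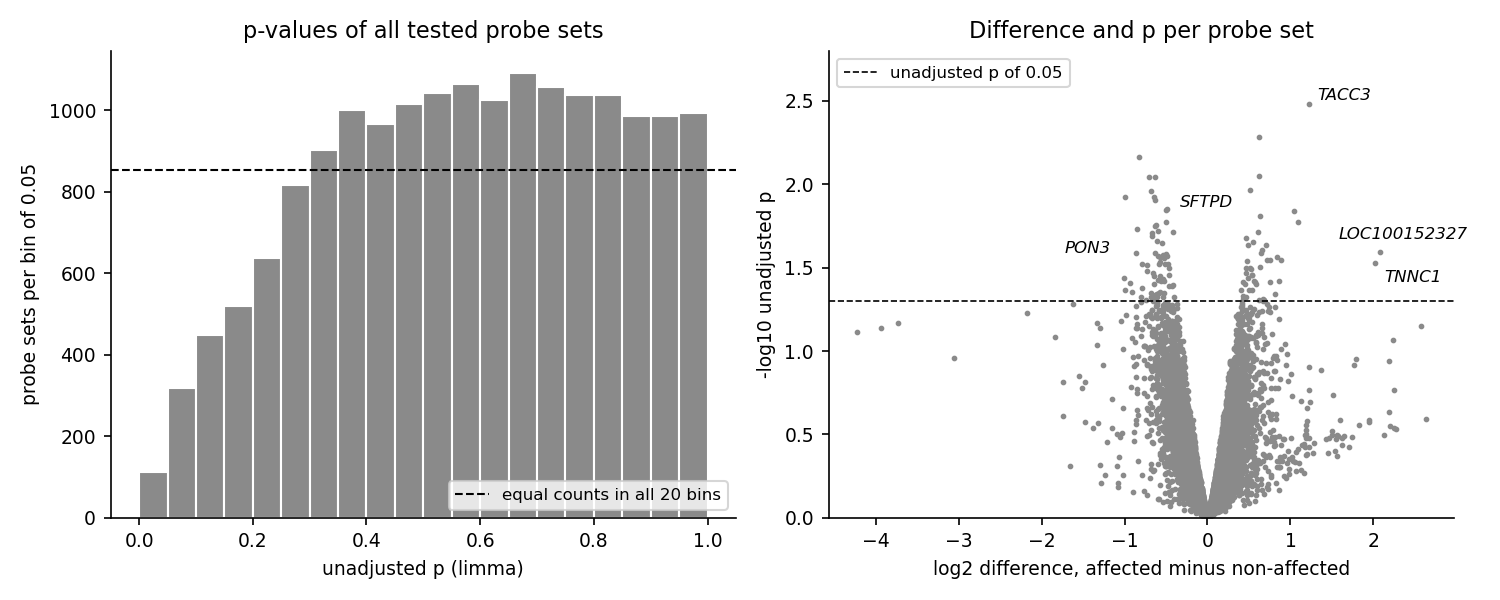
Left, the number of the 17066 probe sets in each bin of 0.05 of the unadjusted limma p, with a dashed line where all 20 bins would hold equal counts; right, the log2 difference (affected minus non-affected) of each probe set against -log10 of that p, with the dashed line at an unadjusted p of 0.05. The first bin holds 113 probe sets and the bins above 0.35 between 966 and 1092 each, and the largest differences, on both sides, lie under the dashed line.

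The differences were small for most probe sets. Their median was -0.01, and the 5th and 95th percentiles were -0.40 and 0.34. The median standard error was 0.26, which gives a 95% interval of 0.57 to either side. For 13527 probe sets (79.3%) the whole 95% interval lay within a 2-fold difference, and for 16682 (97.8%) within a 4-fold difference. A difference beyond 2-fold was measured for 108 probe sets (0.633%), among them the probe sets representing 43 genes, 33 higher and 10 lower in affected animals. Many of these are muscle genes, described below. The 5 and 5 values did not overlap at all for 20 probe sets, 7 higher (0.041%) and 13 lower (0.0762%) in affected animals. How many would separate with no difference between the groups was not worked out, so separation is given as a description only.

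All tested genes named from here on had an adjusted p of 0.99998 in limma for this comparison. None of their differences therefore stood out once the number of probe sets tested was allowed for. Errors of differences are limma's moderated standard errors, in which each probe set's variance is drawn toward a value shared by all tested probe sets. They can therefore lie above or below the error of the 5 and 5 values alone. Differences of inverted teats from non-affected animals come from a fit of all 15 mesenchymal arrays without an animal block. There the normal and inverted teat of an affected animal counted as independent arrays, although they share the animal. The first group consists of the 12 genes per direction with the smallest unadjusted p. Because p chose them, their agreement between animals is a description.

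TACC3, which steadies microtubules of the mitotic spindle, had the smallest unadjusted p of all 17066 probe sets, 0.0033. Its values were 5.39, 5.53, 5.28, 5.04 and 5.95 in affected animals, against 3.88, 5.55, 3.97, 3.71 and 3.94 in non-affected animals. All 5 affected animals exceeded 4 of the 5 non-affected ones, and non-affected animal 957 lay among the affected. The difference was 1.23 ± 0.34 (SE). Non-affected animals other than 957 lay under their array's 30th percentile, which was 4.49 to 4.82, so the size rests on values near the array's dim end. In the inverted teats of the affected animals TACC3 measured 5.19, 5.22, 5.45, 4.63 and 5.41, a difference of 0.97 ± 0.31 (SE) from the same non-affected animals. In epithelial tissue the difference between affected and non-affected animals was 0.15 ± 0.43 (SE).

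The locus LOC100152327, which the annotation used here leaves without a named product, had the largest difference among probe sets with an unadjusted p under 0.05. It measured 9.96, 10.04, 9.56, 8.01 and 10.11 in affected animals, against 7.05, 10.55, 4.99, 7.67 and 7.01 in non-affected animals. The highest value of all belonged to non-affected animal 957, and the other 4 non-affected animals lay below every affected one. The difference was 2.08 ± 0.82 (SE), with an unadjusted p of 0.025. In epithelial tissue of the same teats it was 1.46 ± 0.58 (SE), and in inverted teat mesenchyme 1.78 ± 0.75 (SE) against the same non-affected animals.

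TNNC1, the calcium sensor of slow and heart muscle troponin, measured 9.92, 7.27, 7.72, 10.39 and 6.51 in affected animals, against 7.22, 6.64, 4.14, 7.74 and 5.95 in non-affected animals. Affected animals 963 and 1059 stood above all others and non-affected animal 1040 below all others, while the remaining 7 overlapped. The difference was 2.02 ± 0.82 (SE), and in inverted teats -0.14 ± 1.29 (SE). RRAD, a small GTPase abundant in muscle, had 6.76, 5.84, 5.96, 6.25 and 5.38 in affected animals, against 5.02, 5.38, 5.31, 5.00 and 5.91 in non-affected animals. Its groups overlapped through affected animal 1103 and non-affected animal 1109, and the difference was 0.71 ± 0.27 (SE). In epithelial tissue RRAD differed by -0.04 ± 0.13 (SE).

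CYP27A1, a mitochondrial enzyme that hydroxylates cholesterol, had 7.93, 8.11, 8.72, 7.95 and 7.98 in affected animals, against 7.45, 7.44, 7.29, 8.24 and 6.97 in non-affected animals. Only non-affected animal 1058 reached into the affected range, and the difference was 0.66 ± 0.26 (SE). The other probe sets of this gene gave -0.38 and 0.52. HPN, the membrane serine protease hepsin, measured 5.41, 4.97, 5.31, 5.28 and 5.08 in affected animals, against 4.70, 4.93, 5.08, 4.34 and 4.62 in non-affected animals. The groups overlapped through non-affected animal 1040, with a difference of 0.48 ± 0.19 (SE) here and -0.35 ± 0.22 (SE) in epithelial tissue. DDX60, an interferon-induced helicase, differed by 0.54 ± 0.23 (SE), and RHBDF2, which guides the protease ADAM17 to the cell surface, by 0.52 ± 0.21 (SE). The other 4 genes of the higher set were POLL, a DNA repair polymerase, at 0.61 ± 0.23 (SE), TTLL4, a tubulin-modifying ligase, at 0.71 ± 0.29 (SE), F9, coagulation factor IX, at 0.47 ± 0.19 (SE), and SLC35A4, of the nucleotide sugar transporter family, at 0.46 ± 0.19 (SE). For F9 the other probe sets had the opposite sign, -0.21 and -0.47. HPN lay above its array's 30th percentile on 7 arrays, and POLL, F9 and DDX60 on 8 each. The sizes of their differences therefore rest in part on dim values.

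Among the genes lower in affected animals, SFTPD, the collectin surfactant protein D, was the 1 of the 24 whose groups did not overlap. It had 6.70, 6.56, 6.57, 6.67 and 6.48 in affected animals, against 6.95, 7.08, 7.08, 6.88 and 7.04 in non-affected animals. The values were tight within each group, with a mean of 6.60 ± 0.09 in affected and 7.01 ± 0.09 in non-affected animals (SD, n = 5 each). The difference was -0.41 ± 0.15 (SE), and a further probe set of the gene gave 0.00. In inverted teats of the affected animals the values were 7.10, 6.93, 6.84, 6.43 and 7.19, and their difference from the same non-affected animals was -0.11 ± 0.15 (SE).

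OCIAD2, named for its OCIA domain, measured 5.31, 4.87, 5.17, 5.40 and 5.28 in affected animals, against 6.38, 5.67, 5.59, 5.34 and 6.23 in non-affected animals. Non-affected animal 1058 alone reached into the affected range, and the difference was -0.63 ± 0.23 (SE). In inverted teats it was -0.69 ± 0.24 (SE) against the same non-affected animals. PON3, a lactonase of the paraoxonase family, had 9.44, 8.34, 8.54, 8.86 and 8.26 in affected animals, against 9.55, 9.73, 9.44, 8.56 and 10.49 in non-affected animals. Its overlap came from affected animal 963 and non-affected animal 1058, and the difference was -0.87 ± 0.34 (SE). In epithelial tissue PON3 differed by -0.09 ± 0.52 (SE).

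MEOX2, a homeobox factor of mesoderm and vessels, measured 6.04, 5.26, 5.64, 5.45 and 5.09 in affected animals, against 6.26, 5.61, 6.11, 5.67 and 6.51 in non-affected animals. The affected animals other than 963 lay at or under 5.64 and the non-affected animals from 5.61 upward, and the difference was -0.54 ± 0.24 (SE). ADGRL4, an adhesion receptor of endothelium, had 6.14, 6.68, 6.87, 5.65 and 6.22 in affected animals, against 7.78, 6.46, 6.71, 7.29 and 6.94 in non-affected animals. The ranges overlapped, and the difference was -0.73 ± 0.30 (SE), with -0.51 ± 0.30 (SE) in epithelial tissue. LXN, the carboxypeptidase inhibitor latexin, differed by -0.47 ± 0.19 (SE), and its other probe set by -0.50. SLC4A4, a sodium bicarbonate cotransporter, differed by -0.57 ± 0.23 (SE) with 0.12 at its other probe set. SLC4A4 lay above its array's 30th percentile on only 5 arrays, the fewest the filter allows. Its means were 4.25 in affected and 4.82 in non-affected animals, so the size rests on dim values. ECHDC1, which degrades a by-product of fatty acid synthesis, differed by -0.79 ± 0.35 (SE), and PALMD, the membrane-associated protein palmdelphin, by -0.60 ± 0.26 (SE). SLC41A1, a magnesium transporter, had -0.64 ± 0.27 (SE) with 0.18, -0.01 and 0.35 at its other probe sets, ORC3, of the origin recognition complex, -0.42 ± 0.18 (SE), and FAM69A -0.61 ± 0.28 (SE).

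**Figure D3:**
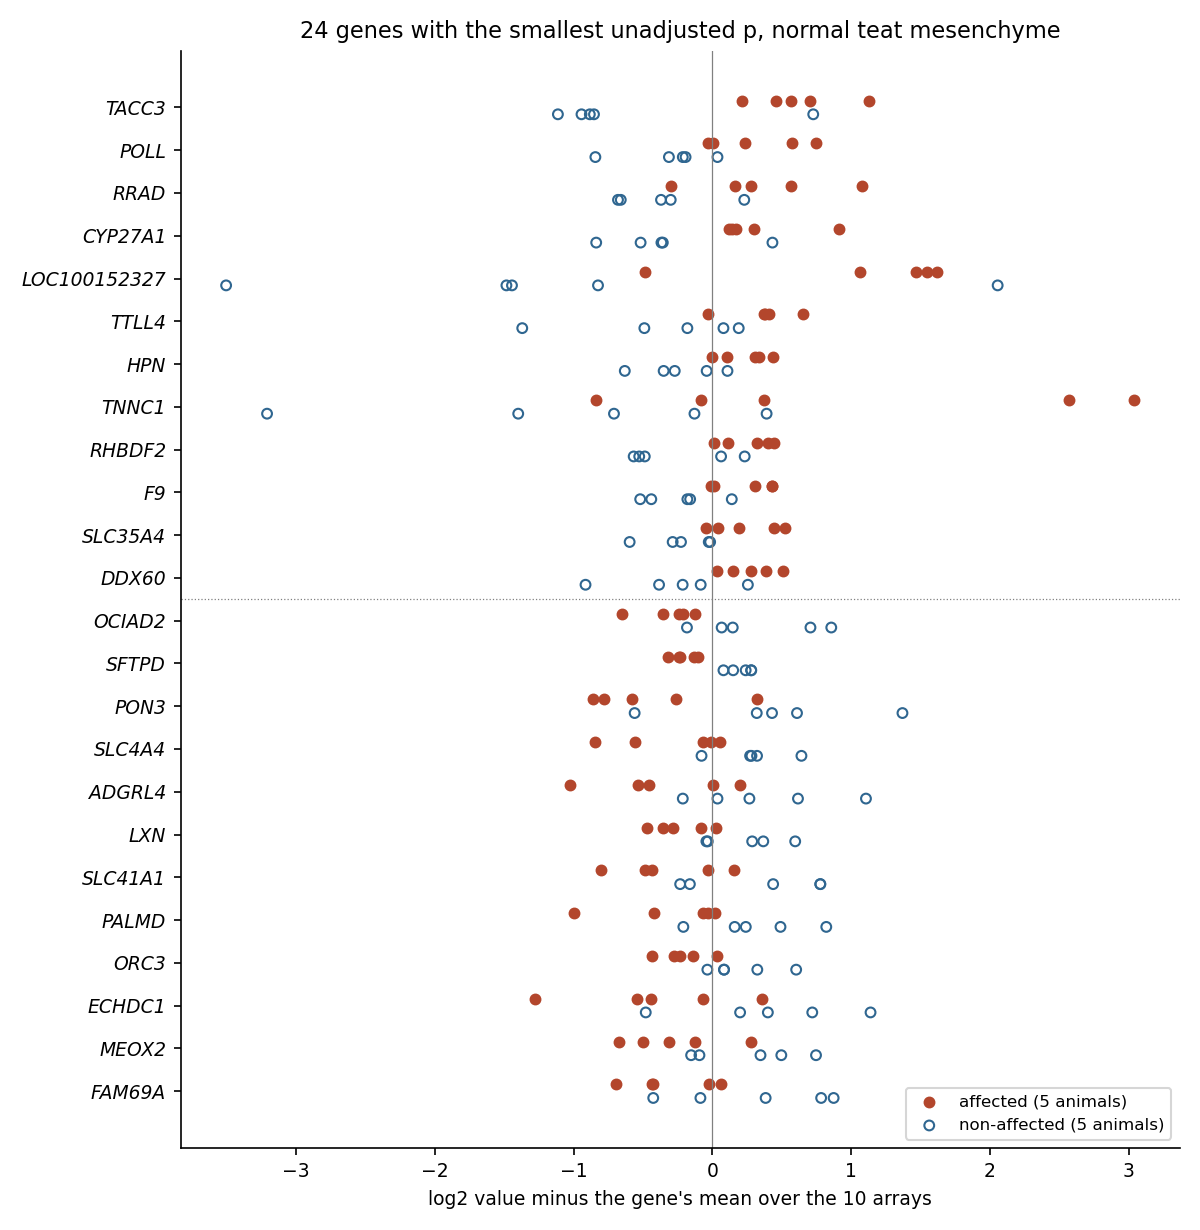
Log2 value of each animal minus the gene's mean over the 10 arrays, for the 12 genes with the smallest unadjusted p among those higher in affected animals (above the dotted line) and the 12 among those lower (below it); filled points are affected and open points non-affected animals. SFTPD is the gene whose groups do not overlap, and in TACC3 and LOC100152327 a single non-affected animal, 957, lies among or above the affected animals.

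Among the 20 probe sets whose groups did not overlap, 4 represent a gene. Besides SFTPD these were DCBLD2, a membrane receptor-like protein of vessels and nerve, the unnamed locus LOC100154179, and STX5, a syntaxin of transport between endoplasmic reticulum and Golgi. LOC100154179 measured 6.77, 6.72, 6.68, 6.74 and 6.29 in affected animals, against 7.53, 7.02, 6.81, 6.93 and 6.87 in non-affected animals, and differed by -0.39 ± 0.19 (SE). STX5 had 7.64, 7.66, 7.64, 7.61 and 8.0 in affected animals, against 7.30, 7.55, 7.42, 7.36 and 7.55 in non-affected animals, and differed by 0.27 ± 0.16 (SE). DCBLD2 differed by -0.44 ± 0.21 (SE). For these genes the groups were apart at differences of under 0.5.

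Another 20 of the 113 probe sets with an unadjusted p under 0.05 report a gene through a dimmer probe set than its representative, and the following were chosen after their values were seen. RGP1, which helps recycle proteins to the Golgi, had 5.50, 5.30, 5.71, 5.95 and 5.75 in affected animals, against 4.78, 4.95, 5.23, 5.06 and 5.09 in non-affected animals at such a probe set, without overlap. Its representative differed by only -0.02. SRSF6, a splicing factor, had 6.76, 6.09, 6.57, 6.91 and 6.46 in affected animals, against 8.18, 7.13, 7.34, 6.92 and 7.38 in non-affected animals, also without overlap but with affected animal 1059 next to non-affected animal 1058, while its representative differed by -0.12 and its other 4 probe sets by -0.75, -0.30, -0.26 and -0.17. ELOVL6, a fatty acid elongase, measured 9.68, 9.68, 9.84, 10.18 and 9.74 in affected animals, against 10.19, 10.09, 10.52, 10.43 and 11.07 in non-affected animals, where affected animal 1059 overlapped non-affected animal 957, and differed by -0.64, with -0.67 and -0.63 at 2 further probe sets and -0.37 at its representative.

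Genes already tied to teat formation were read next, from a list of 36 of which 11 were tested. Of these, 6 lay higher and 5 lower in affected animals, with a median of 0.04 against 0.03 over all 5952 genes, and 0 had an unadjusted p under 0.05 in limma. PTHLH, the epithelial signal, measured 7.90, 7.16, 6.21, 5.10 and 5.18 in affected animals, against 6.51, 8.15, 5.25, 4.64 and 4.96 in non-affected animals. The groups overlapped, and the animals at 6.51 and above were 963, 964, 950 and 957, the same 4 that had high keratins and CSN2. The difference was 0.41 ± 0.71 (SE), with a 95% interval from -1.14 to 1.95.

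PTH1R, the receptor, had 5.73, 5.90, 5.79, 4.58 and 6.46 in affected animals, against 5.07, 6.22, 6.26, 4.24 and 6.14 in non-affected animals. The ranges overlapped, and the difference was 0.11 ± 0.44 (SE), with a 95% interval from -0.85 to 1.07. The homeobox factor MSX1 measured 5.14, 4.79, 5.68, 5.07 and 6.15 in affected animals, against 4.75, 5.27, 5.62, 4.68 and 5.31 in non-affected animals, and differed by 0.24 ± 0.29 (SE), with -0.02 at its other probe set. BMP4, the bone morphogenetic protein of the mesenchyme, had 6.51, 6.05, 7.09, 6.91 and 7.16 in affected animals, against 6.58, 6.47, 6.45, 6.17 and 6.60 in non-affected animals. Affected animals 1037, 1059 and 1103 exceeded every non-affected one and 964 lay below them all, and the difference was 0.29 ± 0.23 (SE), against -0.34 ± 0.22 (SE) in epithelial tissue. The status difference of BMP4 in mesenchyme minus that in epithelium was 0.63 ± 0.27 (SE), with an adjusted p of 0.99989 in limma. LEF1, a Wnt effector, was not tested here.

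Of the remaining members, BMPR1A, a BMP receptor, differed by -0.31 ± 0.32 (SE) and FGFR2, the receptor of fibroblast growth factors in the bud, by -0.23 ± 0.24 (SE). FGFR2 had 5.56, 6.41, 5.78, 5.35 and 5.71 in affected animals, against 5.75, 6.22, 6.42, 5.65 and 5.92 in non-affected animals, with the highest values of both groups nearly equal. WNT10B, the Wnt ligand of the early bud, differed by 0.15 ± 0.18 (SE), TBX2, a T-box factor, by 0.04 ± 0.20 (SE), and the homeobox factor HOXD8 by -0.02 ± 0.24 (SE). Tenascin C (TNC), a matrix protein of bud mesenchyme, differed by -0.18 ± 0.54 (SE). Its lowest value, 4.46, was that of affected animal 1059.

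**Figure D4:**
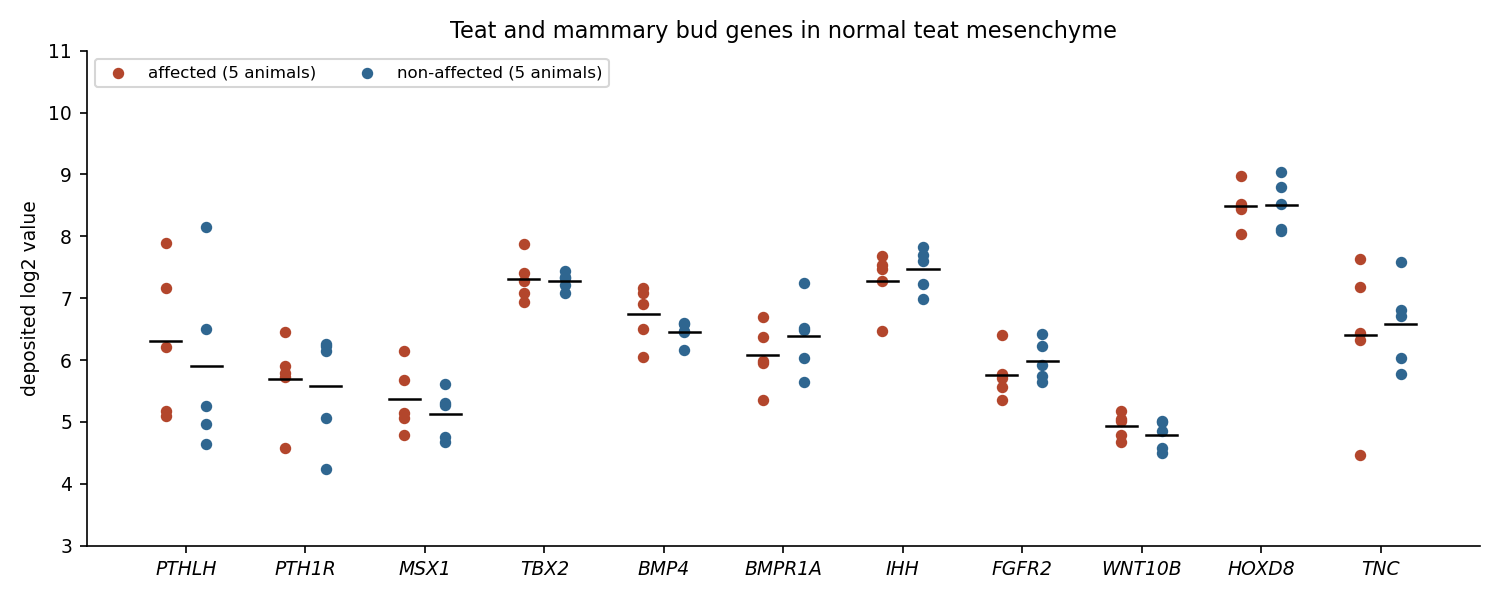
Deposited log2 values of the 11 tested genes of the teat and mammary bud list, 1 point per animal, affected animals to the left of non-affected animals within each gene and a line at each group mean; heights are not comparable between genes. The groups overlap for every gene, and PTHLH and TNC spread widest within the affected group.

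The wider signalling lists were read the same way. Of 25 tested TGF-beta and BMP genes, 18 lay higher and 7 lower in affected animals (median 0.09), of 12 Wnt genes 6 lay on each side (median 0.01), and of 25 other growth factor genes 16 lay higher (median 0.06). Over all 5952 genes 54.99% lay higher. ID3, a target of BMP signals, differed by 0.33 ± 0.29 (SE), and LRP6, a Wnt co-receptor, by -0.37 ± 0.21 (SE). LRP6 measured 6.61, 6.98, 6.90, 6.72 and 6.67 in affected animals, against 7.70, 6.69, 7.02, 7.08 and 7.24 in non-affected animals, where only 957 lay within the affected range. Among 11 homeobox factors 4 lay higher and 7 lower (median -0.06). PRRX1, a homeobox factor of mesenchyme, had 0.32 ± 0.23 (SE) and MEOX2 was the 1 member with an unadjusted p under 0.05.

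Hormone receptors and their partners were even. Of the 22 tested members of the list for steroid hormones, prolactin and growth hormone, 10 lay higher and 12 lower in affected animals (median -0.02). The growth hormone receptor GHR measured 6.88, 6.75, 7.34, 7.19 and 7.44 in affected animals, against 7.69, 7.26, 7.56, 6.87 and 8.54 in non-affected animals. The ranges overlapped, with non-affected animal 1109 highest, and the difference was -0.46 ± 0.29 (SE). The oestrogen receptor gene ESR1 had 0.27 ± 0.61 (SE) and SOCS1, a brake on cytokine receptors, 0.31 ± 0.21 (SE).

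Matrix genes make the fibres and ground substance of the teat. Of 42 tested genes of the fibroblast collagen and matrix list, 27 lay higher and 15 lower in affected animals (median 0.08), and 0 had an unadjusted p under 0.05. COL8A1, a short-chain collagen of vessels and matrix, came closest. It had 6.23, 6.14, 6.94, 6.06 and 6.74 in affected animals, against 5.63, 5.35, 4.57, 6.01 and 6.77 in non-affected animals. Non-affected animal 1109 lay within the affected range and the other 4 below it, and the difference was 0.76 ± 0.36 (SE). Its other probe sets gave 0.50, 0.23 and -1.80.

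Biglycan (BGN), a small proteoglycan, measured 10.88, 10.72, 11.44, 10.20 and 12.95 in affected animals, against 9.55, 11.26, 11.20, 10.24 and 11.02 in non-affected animals, with affected animal 1103 highest and non-affected animal 950 lowest, and differed by 0.59 ± 0.49 (SE). CILP, a cartilage-type matrix protein, differed by 0.77 ± 0.64 (SE) and the fibroblast surface protein THY1 by 0.43 ± 0.38 (SE). Fibril collagens COL1A2 and COL3A1 differed by 0.05 ± 0.30 and -0.08 ± 0.41, and the fibril-binding proteoglycans DCN and lumican (LUM) by 0.07 ± 0.18 and -0.29 ± 0.35 (SE). Without affected animal 1103 the median of the list was -0.04, and without affected animal 1059 it was 0.21. Of 28 matrix proteases, inhibitors and integrins 20 lay higher (median 0.11), with ADAM15, a disintegrin protease, at 0.37 ± 0.24 (SE), and without 1103 this median was -0.09. Of 8 basement membrane genes 3 lay higher (median -0.05).

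The skeletal muscle lists had the largest medians of the 33 lists, with large errors for most of the muscle genes named here. Of 35 fast and shared sarcomere genes, 32 lay higher in affected animals, with a median of 1.18. The mean of these genes was 11.01, 9.89, 8.67, 11.71 and 8.36 in affected animals, against 10.47, 8.75, 3.34, 11.78 and 9.69 in non-affected animals. The array of non-affected animal 1040 was the exception and the other 9 overlapped. Without it the median of the list was -0.16, so the sign of this difference rested on 1 animal. MYLPF, a fast myosin light chain, differed by 2.20 ± 1.95 (SE) with 1.15 in animal 1040, and TNNI2, a fast troponin, by 2.25 ± 2.04 (SE) listed at 0 there.

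Slow muscle genes also lay higher in affected animals, 9 of 10, with a median of 1.5. Here the median stayed above 0 whichever animal was left out, at 0.66 without 1040 and at 0.75 without affected animal 1059. TNNT1, the slow troponin T, had 7.44, 6.54, 7.19, 10.48 and 4.50 in affected animals, against 6.14, 6.39, 0.75, 7.27 and 2.72 in non-affected animals. TNNI1, the slow troponin I, had 7.47, 4.64, 6.42, 9.41 and 5.23 in affected animals, against 5.36, 5.88, 0.00, 6.61 and 4.12 in non-affected animals. In both genes affected animal 1059 stood highest, 1040 lowest, and the other animals overlapped, with differences of 2.57 ± 1.30 and 2.24 ± 1.19 (SE).

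MYH7, the slow myosin heavy chain, differed by 1.22 ± 0.84 (SE), MYL2 by 1.76 ± 1.06 (SE), and FHL1, a muscle LIM protein, by -0.07 ± 0.20 (SE). In the inverted teats of the affected animals the list medians against the same non-affected animals were -0.13 for fast and 0.16 for slow genes, and in epithelial tissue the difference by status had medians of 0.08 and 0.21. The level of muscle genes differed between pieces, and its part in other genes was not tested beyond a fit with the fast muscle mean as a covariate. That fit marked 315 probe sets at an unadjusted p under 0.05 and 0 after adjustment in limma. Smooth muscle genes, which close the teat canal, did not follow: 11 of 25 lay higher and 14 lower (median -0.08). RGS5, a pericyte signalling regulator, had 9.07, 9.46, 8.98, 8.07 and 7.36 in affected animals, against 9.60, 8.86, 8.99, 8.78 and 9.93 in non-affected animals, low in affected animals 1059 and 1103, with a difference of -0.64 ± 0.39 (SE).

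Fat genes lay mostly lower in affected animals, 22 of 31, by a small median of -0.10. PPARG, the master regulator of fat cells, had 8.23, 7.80, 9.43, 8.98 and 8.82 in affected animals, against 8.93, 8.82, 9.25, 8.87 and 10.18 in non-affected animals. The affected animals 963 and 964 were lowest, and these also carried high keratins and CSN2. The difference was -0.56 ± 0.35 (SE). LPIN1, an enzyme and regulator of lipid synthesis, measured 8.85, 9.17, 9.76, 10.5 and 10.07 in affected animals, against 10.38, 9.62, 10.49, 10.14 and 10.85 in non-affected animals, again lowest in 963 and 964, and differed by -0.63 ± 0.33 (SE). PLIN2, the coat of lipid droplets in many cell types, went the other way with 0.66 ± 0.41 (SE). Without affected animal 964 the median of the list was 0.04, and without non-affected animal 950 it was -0.25.

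Of 40 genes of fatty acid oxidation and the mitochondrial matrix, 25 lay lower in affected animals (median -0.08). ACADL, the long-chain acyl-CoA dehydrogenase, had 7.46, 7.44, 8.03, 7.77 and 7.47 in affected animals, against 8.51, 7.73, 7.90, 7.90 and 8.52 in non-affected animals, low in 3 affected animals and high in 2 non-affected ones, and differed by -0.48 ± 0.22 (SE). CPT1B, the muscle carnitine transferase, had 0.49 ± 0.32 (SE). Of 59 respiratory chain genes 36 lay lower (median -0.02), with NDUFS1 of complex I at -0.37 ± 0.26 (SE) and NDUFA7, another complex I subunit, at 0.23 ± 0.28 (SE). Of 26 genes of glycolysis and hypoxia 15 lay higher (median 0.06).

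Macrophage and dendritic cell genes lay higher in affected animals in 19 of 25 cases, with a median of 0.32. Only both muscle lists and a list of 3 B and plasma cell genes (median 0.49) had larger medians among the 33 lists, and the B and plasma cell median was 0.16 without affected animal 1103, 0.24 without non-affected animal 1040 and 0.82 without non-affected animal 950. VSIG4, a complement receptor of tissue macrophages, measured 8.28, 6.90, 7.0, 7.19 and 9.64 in affected animals, against 6.88, 7.71, 5.62, 6.60 and 7.85 in non-affected animals. C1QC, a chain of complement C1q, had 11.49, 9.87, 10.05, 9.76 and 12.28 in affected animals, against 9.40, 11.20, 8.76, 9.70 and 10.78 in non-affected animals. Both were highest in affected animals 1103 and 963 and lowest in non-affected animal 1040, with differences of 0.87 ± 0.56 and 0.72 ± 0.57 (SE).

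CD209, a lectin of these cells, differed by 0.79 ± 0.72 (SE), CD163, a haemoglobin scavenger receptor, by 0.52 ± 0.47 (SE), and MARCO, a scavenger receptor, by -0.34 ± 0.21 (SE). Without affected animal 1103 the list median was 0.04 and without affected animal 1059 it was 0.56. In inverted teat mesenchyme of the affected animals it was 0.22 against the same non-affected animals, and in epithelial tissue 0.15. Among 37 cytokines, chemokines and complement genes 28 lay higher (median 0.13). CXCL16, a chemokine, had 8.47, 8.14, 7.46, 6.45 and 7.43 in affected animals, against 7.52, 7.81, 6.67, 5.87 and 6.66 in non-affected animals, and differed by 0.69 ± 0.43 (SE) with overlapping ranges.

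Lymphoid genes were measured in small numbers. The leukocyte antigen gene PTPRC lay above its array's 30th percentile on 4 of 10 arrays and was not tested. JCHAIN, which joins IgA and IgM in plasma cells, measured 8.11, 6.78, 6.80, 6.14 and 5.92 in affected animals, against 7.36, 7.63, 4.78, 5.48 and 4.63 in non-affected animals. Non-affected animals split, with 950 and 957 high and the other 3 under every affected animal, and the difference was 0.78 ± 0.63 (SE). In epithelial tissue of the same animals it was 1.48 ± 0.59 (SE). Of 16 T, NK and mast cell genes 9 lay higher (median 0.03), of 21 MHC and antigen presentation genes 14 (median 0.11), and of 23 interferon-stimulated genes 12 (median 0.03). MX1, an antiviral GTPase, had 0.43 ± 0.35 (SE), led by affected animal 1037 with 9.24.

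Vessel genes were even, 16 of 30 higher and 14 lower (median 0.02). The endothelial markers PECAM1 and CDH5 differed by -0.27 ± 0.28 and 0.09 ± 0.29 (SE). ERG, an endothelial transcription factor, had -0.56 ± 0.31 (SE), and PDPN, which marks lymphatic endothelium and some fibroblasts, 0.37 ± 0.19 (SE). PDPN measured 8.28, 7.85, 7.98, 8.62 and 8.43 in affected animals, against 7.69, 8.08, 7.87, 7.85 and 7.82 in non-affected animals, so that 3 affected animals exceeded all non-affected ones. Melanocyte and Schwann cell genes lay lower in 7 of 8 cases (median -0.11), where MITF, the melanocyte regulator, had -0.32 ± 0.23 (SE).

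Growth and housekeeping lists differed by small amounts. Cytosolic ribosome genes lay higher in affected animals in 49 of 58 cases, yet their median was 0.08 and their differences ran only from -0.11 to 0.20. Their mean per array was 12.47, 12.54, 12.46, 12.28 and 12.44 in affected animals, against 12.46, 12.41, 12.41, 12.11 and 12.45 in non-affected animals. The array of non-affected animal 1058 was low, and without it the median was 0.01. Of 35 cell cycle genes 25 lay higher (median 0.12). CCNB1, the mitotic cyclin, had 5.32, 5.57, 5.33, 4.86 and 5.23 in affected animals, against 4.85, 5.52, 3.75, 4.68 and 4.79 in non-affected animals, where 957 again lay with the affected, as in TACC3, and differed by 0.55 ± 0.29 (SE).

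Of 46 heat shock and chaperone genes 20 lay higher and 26 lower (median -0.03), and of 33 proteasome genes 17 and 16 (median 0.00). CANX, a chaperone of the endoplasmic reticulum, differed by -0.40 ± 0.21 (SE), and 4 of its 5 other probe sets were lower as well. Of 28 immediate early genes 17 lay higher (median 0.10). IER5 of this list differed by 0.72 ± 0.45 (SE), with 10.09 in affected animal 1059. Across the 33 lists, 22 medians lay above and 11 below 0, 29 lay within 0.15 of it, and TNNC1 and MEOX2 were the only members with an unadjusted p under 0.05 in limma.

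**Figure D5:**
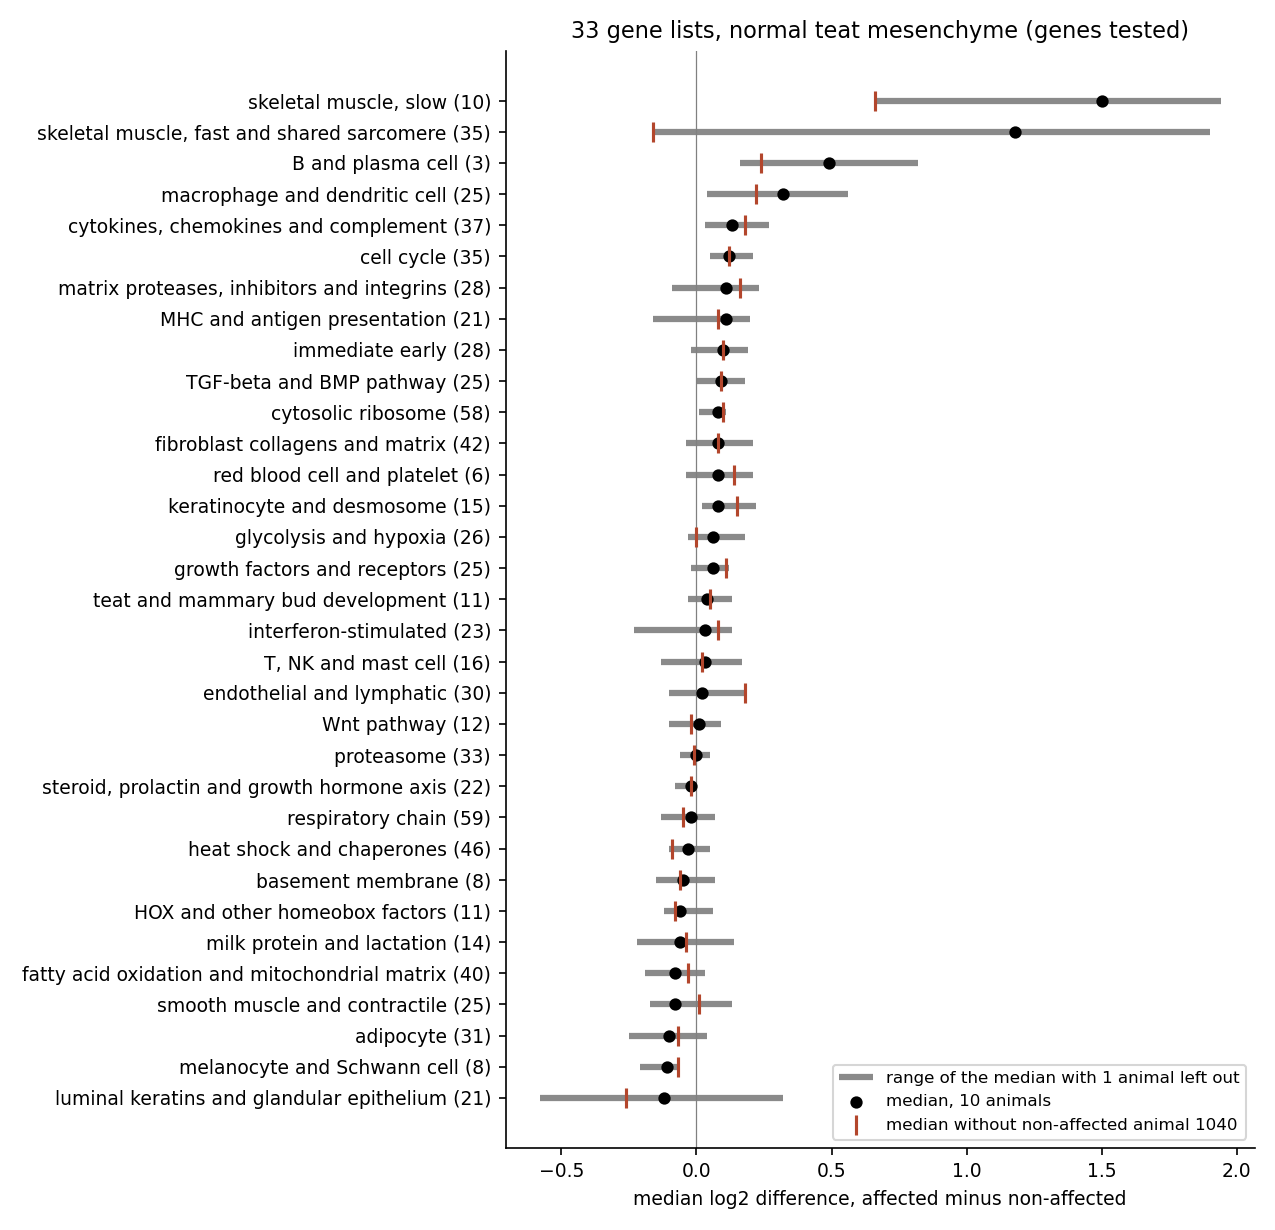
Median log2 difference (affected minus non-affected) of the tested genes of each of 33 lists, with the number of genes in parentheses; black points use all 10 animals, grey bars span the medians with 1 animal left out at a time, and red ticks mark the median without non-affected animal 1040. Muscle lists lie furthest from 0 and move most, and 10 of the 33 bars stay on 1 side of 0.

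Whether the difference by status was particular to mesenchyme was tested on the mesenchyme minus epithelium difference within each of the 10 animals, where a constant offset between the tissues drops out. Again 0 of 17066 probe sets passed in limma, the smallest adjusted p was 0.99989, and 199 (1.17%) had an unadjusted p under 0.05. The same status comparison in epithelial tissue marked 475 of these probe sets at an unadjusted p under 0.05 and 0 after adjustment (smallest adjusted p 0.756). Inverted teat mesenchyme of affected animals against the same non-affected animals marked 204 and 0 (smallest adjusted p 0.99995 in limma).

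The genes with the smallest unadjusted p for this difference between tissues were led by ALG14, an enzyme of N-glycosylation. In mesenchyme it had 5.16, 4.97, 4.98, 4.50 and 5.42 in affected animals, against 4.41, 4.84, 4.92, 4.38 and 4.39 in non-affected animals, a difference of 0.42 ± 0.21 (SE), with 0.09 at its other probe set. In epithelium the difference was -0.55 ± 0.13 (SE), so the tissues differed by 0.97 ± 0.23 (SE). ALG14 lay above its array's 30th percentile on only 6 of the mesenchymal arrays compared. Its epithelial means were 4.03 in affected and 4.58 in non-affected animals, so the size rests in part on dim values. SLC26A6, an anion exchanger, differed between tissues by 1.15 ± 0.29 (SE), with 0.36 ± 0.35 in mesenchyme and -0.79 ± 0.24 in epithelium. It lay above the 30th percentile on only 5 of the mesenchymal arrays, the fewest the filter allows. Its epithelial means were 4.08 in affected and 4.87 in non-affected animals, so the same limit holds. CLDN11, a tight junction claudin, had 1.33 ± 0.46 (SE), PMM1, a phosphomannomutase, 0.63 ± 0.20 (SE), and CCDC8 0.68 ± 0.22 (SE).

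On the lower side AHSG, the plasma protein fetuin-A, differed by -0.79 ± 0.40 in mesenchyme and 0.22 ± 0.24 in epithelium (SE). It measured 6.23, 5.75, 5.26, 5.83 and 4.96 in affected animals, against 7.17, 6.69, 7.21, 5.52 and 5.38 in non-affected animals, high in 3 of the non-affected and overlapping otherwise. ORC3 had -0.42 ± 0.18 in mesenchyme and 0.18 ± 0.19 in epithelium (SE). STEAP1, a metalloreductase family member, FAM107B and LOC396796 differed between tissues by -0.62 ± 0.23, -0.58 ± 0.20 and -0.51 ± 0.18 (SE). The adjusted p of each of these 10 genes for the difference between tissues was 0.99989 in limma.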

How the data were processed

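RNA of teat tissue was hybridised to Affymetrix Porcine Genome arrays. The deposited values are on a log2 scale, as judged from their range (0 to 20.77), and, per the submitters' processing notes, GCOS 1.1.1 and PLIER were used. Their normalization and the treatment of values at 0 are not given in the sources used here. The values were used as deposited. The 124 control probe sets were left out, and 17066 of 24123 probe sets that exceeded the 30th percentile of their array on at least 5 of the 10 arrays were tested. Of all probe sets, 10099 carry 1 gene symbol, 198 several and 13826 none, per the platform annotation, and 9989 were updated through Entrez identifiers. Each gene's representative is its brightest probe set, by the mean of all 30 arrays.

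Affected and non-affected animals were compared with limma 3.58.1 in R 4.3.3 (lmFit and eBayes, 2-sided, Benjamini-Hochberg over all probe sets, threshold 0.05), with Python 3.11.15, pandas 2.3.3 and numpy 2.4.6 for the tables. The difference between tissues was fitted on mesenchyme minus epithelium values within animals. The fit was tested on simulated data. Named genes are the 12 per direction with the smallest unadjusted p among representatives, the 5 per direction for the difference between tissues, the tested member of each list with the smallest p in each direction, and PTHLH, PTH1R, LEF1 and MSX1 where tested. The 12 were taken by p because none passed the threshold. Other list members given with values were chosen after their values were seen. The members and lists were chosen with earlier results of these data known. Alternatives changed the filter, normalization, floor, arrays fitted, blocks, covariates, array weights, test and left-out animal.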

Additional observations from a re-analysis of the deposited data

Results flagged for a closer look

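In 16 of 242 groups of 5 animals, 1 animal lay far from the other 4 by Dixon's criterion, which chance meets in about 1 in 20 groups. Among affected animals, CYP27A1 was 8.72 in 1037 (others 7.93 to 8.11), LOC100152327 was 8.01 in 1059 (others 9.56 to 10.11), SOCS1 was 7.18 in 1103 (others 6.50 to 6.68) and the chaperone gene PDIA4 was 8.35 in 1059 (others 8.90 to 8.94). Affected animal 1059 also had the lowest list means for teat and mammary bud genes, 5.91 (others 6.40 to 6.59), and for cell cycle genes, 6.39 (others 6.66 to 6.77).

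Among non-affected animals, TACC3 was 5.55 in 957 (others 3.71 to 3.97), ADAM15 was 7.39 in 1040 (others 6.44 to 6.59), MFGE8, a milk fat globule protein, was 7.73 in 950 (others 8.63 to 9.0), and the proteasome subunit gene PSMC6 was 10.28 in 950 (others 8.95 to 9.28). The mean of growth factor and receptor genes was 7.32 in 950 (others 7.61 to 7.71). Non-affected animal 1058 stood apart in 5 of the 16 groups, beside 4 for affected animal 1059 and 3 for non-affected animal 950. The groups share the same arrays and are not independent. In 1058, MARCO was 6.21 (others 5.34 to 5.50) and NDUFA7 was 9.48 (others 8.32 to 8.61). Its list means were 7.87 for MHC and antigen presentation (others 8.95 to 9.12), 12.11 for cytosolic ribosome (others 12.41 to 12.46) and 5.68 for red blood cell and platelet genes (others 6.21 to 6.32).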

How the results depend on the processing

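The count of probe sets with an adjusted p under 0.05 was 0 under every alternative run, for both the status comparison and the difference between tissues. The number with an unadjusted p under 0.05 (113) was 363 without a filter, 54 with a filter at the array median, 187 with all 15 mesenchymal arrays and no block, 148 with the animal as a replicate block on those arrays (consensus correlation 0.515), 315 with the muscle covariate, 208 with CSN2 as a covariate, 275 with array weights and 191 by ordinary analysis of variance. With the luminal keratin mean as a covariate the number was 160, and with breed as a block it was 127. Leaving out 1 animal gave 74 (without affected animal 1103) to 278 (without non-affected animal 1058), with 244 without affected animal 964, 189 without affected animal 1037 and 188 without non-affected animal 957. For the difference between tissues (199) the count was 535 without a filter, 77 with 20 arrays and no block, 227 with the animal as a replicate block (correlation 0.299), and 151 to 318 with 1 animal left out (318 without non-affected animal 1058, 311 without affected animal 1059). Of the named genes, 5 with small differences turned sign. With the muscle covariate CSTB (-0.12) was 0.01 and MAG (0.02) was -0.04, and with array weights ALAS2 (0.20) was -0.10 and PTH1R (0.11) was -0.25. With 1 animal left out, CSTB ranged from -0.33 to 0.09, MAG from -0.09 to 0.25, ALAS2 from -0.04 to 0.44, HBB (-0.24) from -0.44 to 0.08 and PTH1R from -0.23 to 0.38. The cause was not tested. Of 33 list medians, 24 changed sign in at least 1 setting. The number of arrays limits precision.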

Other observations

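The largest differences among genes with a single symbol, chosen after their values were seen, belonged to SCGB1D1, a secretoglobin of glandular secretions, and CHIA, an acidic chitinase. SCGB1D1 had 9.02, 9.09, 10.15, 8.38 and 9.45 in affected animals, against 20.58, 9.82, 19.16, 8.67 and 8.97 in non-affected animals. CHIA had 5.32, 5.89, 5.12, 4.86 and 4.98 in affected animals, against 15.91, 5.43, 14.26, 5.20 and 5.05 in non-affected animals. Both were high in the non-affected animals 950 and 1040 and close together in the other 8. The differences were -4.22 ± 2.18 and -3.94 ± 2.0 (SE), each with an adjusted p of 0.99998 in limma.

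High values did not keep to non-affected animals. In inverted teat mesenchyme of affected animal 964, SCGB1D1 was 20.77 and CHIA 14.72, while the other 4 inverted teats had SCGB1D1 at 8.59 to 9.51. In epithelial tissue of normal teats SCGB1D1 was 19.17 in affected animal 964 and 18.91 in affected animal 1103, against 18.20, 16.99, 15.59 and 17.48 in non-affected animals 950, 957, 1040 and 1109. It was 9.15 to 9.21 in the other affected animals and 9.15 in non-affected animal 1058. Every array with SCGB1D1 above 15 also had CHIA above 9.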
